A study of Mus musculus with 4 samples.

Results

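A set of 10 genes of cell-cell junctions was followed through the cells of mouse popliteal vessels: the claudin genes Cldn1, Cldn5, Cldn11, Cldn15 and Cldn19, the other tight junction genes Ocln, Tjp1, Esam and Jam2, and the adherens junction gene Cdh5. They are 10 of the 32286 gene features measured and were listed by name. They are described in lymphatic endothelium, blood endothelium, Schwann cells, perineurial cells and mural cells, the last split into muscle cells and pericytes. Single-cell RNA was read as unique molecular identifiers (UMIs), each standing for 1 captured RNA molecule.

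Tight junctions seal the space between neighbouring cells. Claudins form the paracellular strands and differ in what they let through, occludin joins them in the membrane, and ZO proteins such as the one encoded by Tjp1 tie the strands to actin. In endothelium these strands lie among adherens junctions built by VE-cadherin, the product of Cdh5, and among immunoglobulin-type adhesion molecules such as those of Esam and Jam2. In nerve, perineurial cells wrap the fascicles in a tight-junction sheath, and myelinating Schwann cells carry autotypic tight junctions between the turns of their own membrane.

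All mice were adults that carried a GFP-Cre fusion at the Wt1 locus and the Ai9 tdTomato reporter, and had received Evans blue in the footpad. There were 3 libraries, each from 1 pool of 2 mice: PLV replicate 1 and PLV replicate 2, of popliteal lymphatic vessels, and a mixed library of popliteal lymphatic vessels and vessels labelled BV. Earlier work on these data had found that the hashtags of the mixed library do not separate its cells. They were not examined here, and the mixed library is treated as 1 sample. Its digestion was also longer and used neither DNase nor Liberase, so vessel, digestion, run and mice cannot be told apart between the PLV libraries and the mixed one. P-values measure the spread between these pools, not between single animals.

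After filtering, 1911, 516 and 994 cells were kept in the PLV replicates and the mixed library, with median depths of 3372, 4886.5 and 6162 UMIs, and the libraries shared 0 cell barcodes. The classes are clusters named from marker genes, each to be read as "like" its name, and neither the 10 genes nor the other junction genes entered the clustering or the naming. The lymphatic endothelial class had 192, 106 and 54 cells in the order just given, the blood endothelial class 260, 76 and 174, the Schwann class 234, 53 and 38, the perineurial class 15, 6 and 10, the muscle class 295, 55 and 251, and the pericyte class 118, 28 and 57. Marker checks held for 7, 10 and 7 of 10 lymphatic, 11, 10 and 12 of 12 blood endothelial, 10, 10 and 11 of 11 Schwann, 9, 9 and 9 of 9 muscle and 9, 9 and 9 of 10 pericyte markers, each at least 2-fold above the other cells. Lyve1 and Ccl21a, defining markers of lymphatic capillaries, were at 0 UMIs in the lymphatic class of the mixed library. The perineurial class of the mixed library stood apart and is treated with and without that library below. Levels are given in CPM, the UMIs of a gene scaled to all UMIs of the class in that library, in the order PLV replicate 1, replicate 2, mixed library. They are compared within a gene only, because the counts are not scaled to gene length.

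**Figure D1:**
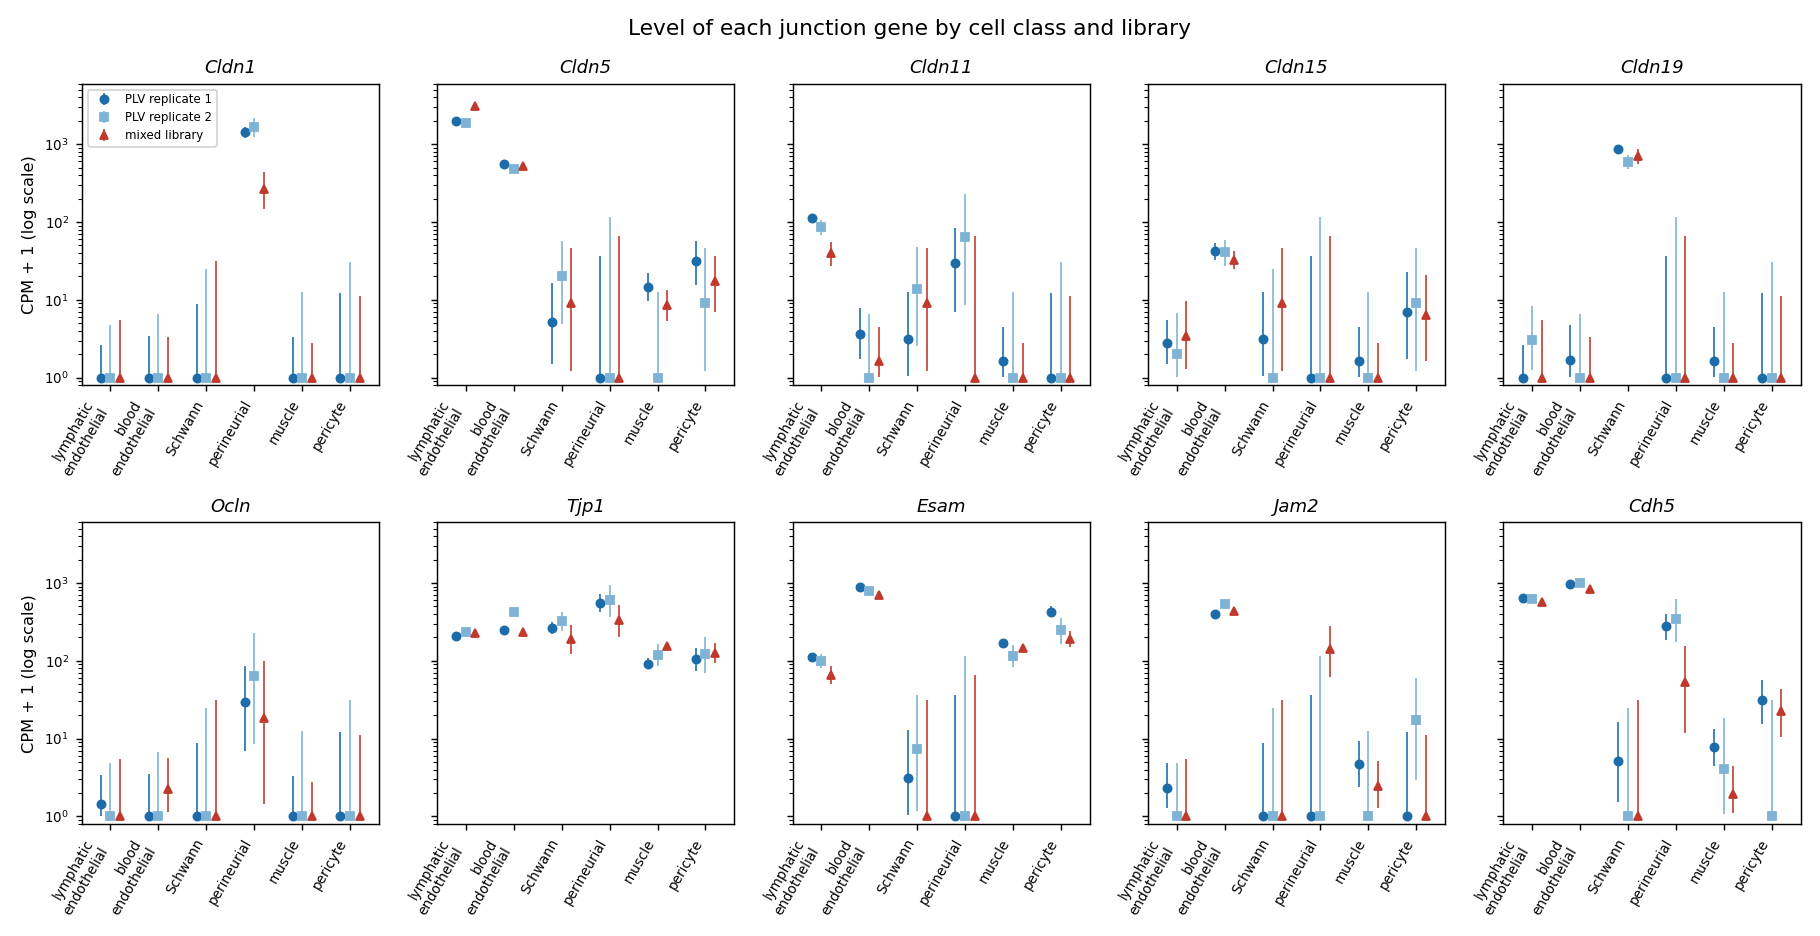
Level of each of the 10 genes (CPM + 1 on a log axis) in 6 cell classes, 1 point per library with its 95% exact Poisson interval, which covers counting error only. Of these classes Cldn19 is high in Schwann cells, Cldn1 in perineurial cells, and Cldn5 highest in lymphatic endothelium, where the 3 libraries lie between 1866 and 3093 CPM.

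The members divided the vessel wall and its nerve by cell class. Cldn5 was highest in lymphatic endothelium, Cldn15, Esam, Jam2 and Cdh5 in blood endothelium, Cldn19 in Schwann cells and Cldn1 in perineurial cells, while Tjp1 was found in each of these classes. Ocln gave 12 UMIs in all kept cells and did not pass the filter on low counts, so 9 of the 10 genes were tested. The filter asked for 17.7 CPM in at least as many sums as the smallest class holds. Cldn15 was past it only in blood endothelium, Cldn19 only in Schwann cells, Cldn11 in all 3 sums only of lymphatic endothelium, and Cldn1 in every sum only of perineurial cells. Each of these 4 had to differ between its high class and the classes that lack it, as had Cldn5 between endothelium and such classes, so those differences are descriptions with no p.

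Cldn5 encodes the claudin that dominates endothelial tight junctions and that limits small solutes at the blood-brain barrier. It lies at chr16:18776847-18778262 on the plus strand (GRCm38, GENCODE M21, identifier ENSMUSG00000041378). In lymphatic endothelium it read 2008, 1866 and 3093 CPM, and a UMI was found in 94.8%, 86.8% and 96.3% of cells. In blood endothelium it read 551, 474 and 522 CPM, with a UMI in 52.7%, 64.5% and 47.1% of cells. The groups did not overlap: every lymphatic sum lay above every blood endothelial sum. The difference was a log2 fold change of 2.16 (SE 0.33, edgeR quasi-likelihood test, adjusted p = 3.68e-05). Cells were also thinned to 1500 UMIs, which left out the shallower cells, 44, 35 and 5 of the lymphatic and 43, 15 and 38 of the blood endothelial class. The thinned shares of the deeper cells kept the order, at 92.6%, 83.1% and 98.0% against 39.2%, 37.7% and 27.2%. Schwann cells, used as a class that should lack the gene, gave 6 UMIs in all and a thinned share of 0.704%, 2.63% and 0%, with median depths of 1762.5, 3018 and 2598.5 UMIs. The median depths of the lymphatic class were 3498, 4914.5 and 4737.5 UMIs and those of the blood endothelial class 4121, 6627.5 and 7443.

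Against the mural cells Cldn5 was higher in endothelium by 6.41 on the log2 scale (SE 0.33). Pericytes read 30.1, 8.14 and 16.3 CPM and muscle cells 13.8, 0 and 7.62, so the mural levels lay far below either endothelium in each library. Perineurial cells gave 0 UMIs, so the lymphatic level was at least 142-fold higher, taken against a floor of 3 counts over the group, the floor used for every such bound.

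Within blood endothelium Cldn5 separated the kinds of vessel. Arterial cells read 1294, 1549 and 2523 CPM, capillary cells 394, 567 and 814, and venular cells 41.7, 0 and 26.3. Arterial, capillary and venular levels did not overlap. Capillary cells exceeded venular cells by 4.36 on the log2 scale (SE 0.48, adjusted p = 1.29e-07 by edgeR). Arterial cells exceeded capillary cells by 1.45 (SE 0.37, adjusted p = 0.0292 by edgeR), but the arterial sums rested on 85, 16 and 42 cells and the call was lost without PLV replicate 1 (adjusted p = 0.119), without PLV replicate 2 (0.145) and with DESeq2 (0.131). Lymphatic cells exceeded venular cells by 6.38 (SE 0.49, adjusted p = 1.13e-11 by edgeR). The arterial class of PLV replicate 1 joined a cluster led by Cytl1 and Gkn3 (22 cells, 1960 CPM) and one led by Sema3g and Gja5 (63 cells, 1142 CPM). In the lymphatic class of the same library the cluster led by Ccl21a and Lyve1 read 1957 CPM and the one led by Nts and Clca3a1 2013.

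Cldn11 encodes the claudin known from myelin of the central nervous system and from the testis barrier, and lies at chr3:31149920-31164324 (plus strand). Lymphatic endothelium read 111, 84.3 and 38.4 CPM from 253, 82 and 32 UMIs. Blood endothelium gave 5 UMIs in all, at 2.67, 0 and 0.63 CPM. The lymphatic sums all lay above the blood endothelial ones, and the difference was 5.74 on the log2 scale (SE 0.55), in a gene that the filter admitted through lymphatic sums. Of the 5 blood endothelial UMIs all were in venular cells, where the levels were 9.27, 0 and 1.32 CPM, and lymphatic cells exceeded venular cells by 4.08 (SE 0.59), which DESeq2 did not call. The share of lymphatic cells with a UMI was 30.2%, 20.8% and 13.0%, and 12.2%, 7.04% and 2.04% after thinning. Another draw over the same cells of the mixed library gave 0%, so the thinned share depends on the draw. In PLV replicate 1 the cluster led by Ccl21a and Lyve1 read 170 CPM and the one led by Nts and Clca3a1 104. In PLV replicate 2 the cluster led by Ccl21a and Mmrn1 read 78.7 CPM and the one led by Gm10800 and Nts 136, so the order was not the same. Muscle cells gave 1 UMI and pericytes 0, and the endothelial excess over mural cells was 5.43 on the log2 scale (SE 1.18). Perineurial cells read 28.5, 62.8 and 0 CPM from 3, 2 and 0 UMIs, a range that overlaps the lymphatic one, and Schwann cells read 2.11, 12.8 and 8.21 CPM from 4 UMIs in all. Beside these differences, the 10 lymphatic markers summed to 52.7, 67.2 and 57.8 CPM in blood endothelium.

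Cldn15 encodes a pore-forming claudin known for sodium passage in gut epithelium, and lies at chr5:136966616-136975858 (plus strand). It ran the other way from Cldn11. Blood endothelium read 41.4, 39.7 and 31.7 CPM and lymphatic endothelium 1.75, 1.03 and 2.40, from 138 and 7 UMIs. The groups did not overlap, and the lymphatic level was lower by 4.39 on the log2 scale (edgeR log2 fold change -4.39, SE 0.53), in a gene that the filter admitted through blood endothelial sums. A UMI was found in 13.8%, 22.4% and 17.2% of blood endothelial cells, and in 1.84%, 4.92% and 5.15% after thinning.

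Capillary cells read 56.6, 52.3 and 54.4 CPM of Cldn15 and venular cells 6.95, 6.63 and 3.95. The capillary excess was 3.18 on the log2 scale (SE 0.58), given with no p because the gene passed the filter through capillary and arterial sums and no venular sum. Arterial cells read 53.5, 0 and 87.0 CPM, where PLV replicate 2 held 25170 arterial UMIs, and the arterial cluster led by Cytl1 and Gkn3 in PLV replicate 1 gave 0 CPM against 65.7 in that led by Sema3g and Gja5. Mural cells gave 6 UMIs, and the endothelial excess over them was 2.38 (SE 0.66), a call lost without PLV replicate 1 and without the mixed library.

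**Figure D2:**
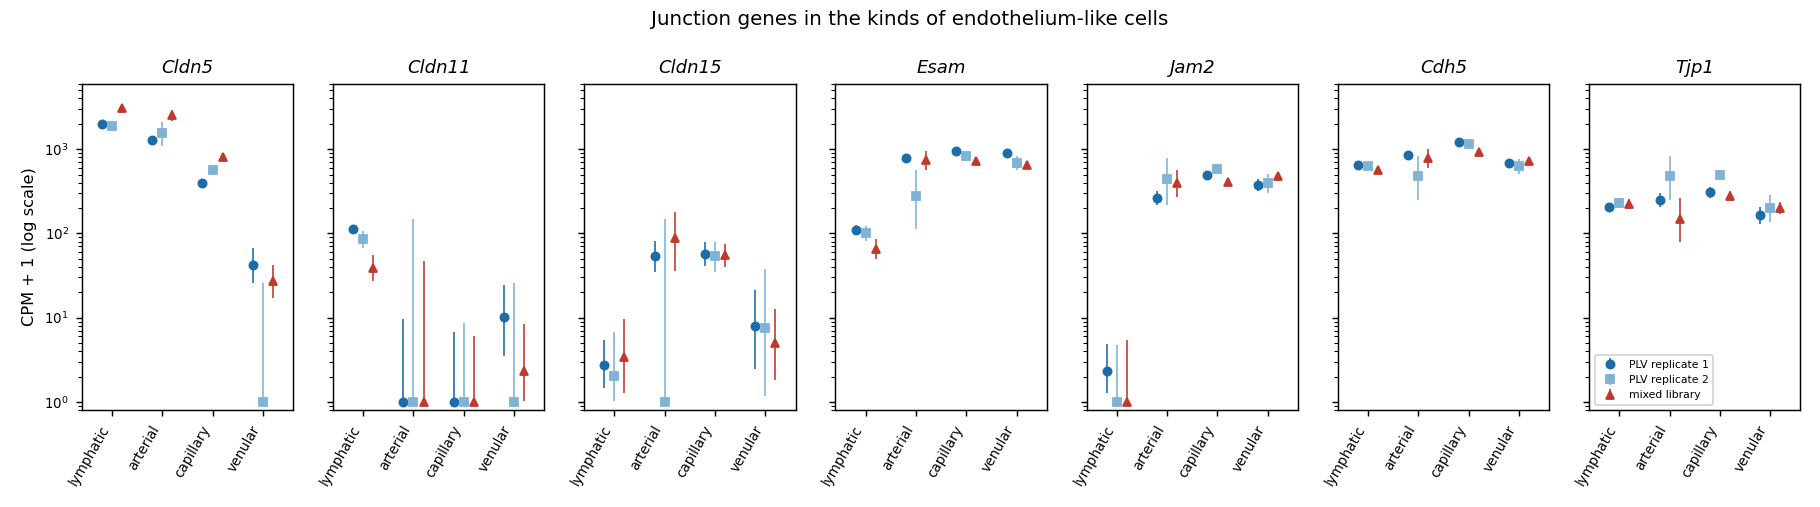
Level of 7 of the genes (CPM + 1 on a log axis) in lymphatic, arterial, capillary and venular endothelium, 1 point per library with its 95% exact Poisson interval, which covers counting error only. Cldn5 is lowest in venular cells, Cldn15 is low in lymphatic and venular cells, and Jam2 and Esam are low in lymphatic cells.

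Jam2 encodes junctional adhesion molecule B, of the immunoglobulin superfamily, and lies at chr16:84774123-84825928 (plus strand). Blood endothelium read 392.5, 533 and 441 CPM from 1632 UMIs, and lymphatic endothelium gave 3 UMIs, all in PLV replicate 1. The level of blood endothelium was 597 times that of lymphatic endothelium over the summed libraries, with a counting interval from 204 to 2898 (adjusted p = 1.62e-09 by edgeR). Arterial cells read 265, 437 and 398 CPM, capillary cells 490, 583 and 409 and venular cells 375, 391 and 477, so the 3 kinds overlapped. The difference between capillary and venular cells was 0.08 on the log2 scale (SE 0.33, adjusted p = 1 by edgeR). Venular cells, low in Cldn5, exceeded lymphatic cells in Jam2 by a ratio of 593 (202 to 2882, adjusted p = 1.76e-12 by edgeR). Muscle cells gave 9 UMIs and pericytes 2. Endothelium exceeded mural cells by 2.97 (SE 1.10, adjusted p = 0.0374 by edgeR), a call lost without PLV replicate 1 (adjusted p = 0.943) and with DESeq2 (0.0801). Fibroblasts read 37.8, 64.2 and 36.9 CPM, above either mural class.

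Esam encodes the endothelial cell-selective adhesion molecule, a tight junction protein also known from platelets, and lies at chr9:37528078-37538319 (plus strand). Blood endothelium read 896, 778 and 689 CPM and lymphatic endothelium 109, 99.7 and 64.8. The groups did not overlap, and the lymphatic level was lower (edgeR log2 fold change -3.13, SE 0.29, adjusted p = 6.64e-08). Esam was also present in mural cells: pericytes read 428, 244 and 191 CPM and muscle cells 166, 115 and 144. Both mural classes therefore lay above lymphatic endothelium in each library. The mean of both endothelia and that of both mural classes differed by 0.43 (SE 0.20, adjusted p = 0.0936 by edgeR). Muscle and pericytes differed by -0.79 (SE 0.29, adjusted p = 0.0952 by edgeR). Beside this, the 12 blood endothelial markers summed to 1057, 1042 and 817 CPM in pericytes and 212, 261 and 171 in muscle cells, and Cdh5 read 30.1, 0 and 21.8 CPM in pericytes; the part of endothelial RNA in the mural Esam level was not tested. Capillary and venular levels of Esam, at 962, 832 and 722 against 906, 690 and 652 CPM, differed by 0.02 (SE 0.29, adjusted p = 1 by edgeR).

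Cdh5 encodes VE-cadherin, the transmembrane adhesion molecule of endothelial adherens junctions, and lies at chr8:104101625-104144511 (plus strand). Blood endothelium read 963, 1012 and 828 CPM and lymphatic endothelium 647, 623 and 568, and all lymphatic sums lay below all blood endothelial ones. The fitted difference was -0.62 (SE 0.38, adjusted p = 0.32 by edgeR). Mural cells held few UMIs, 14 in muscle and 18 in pericytes, and endothelium exceeded them by 6.47 on the log2 scale (SE 0.41, adjusted p = 5.57e-11 by edgeR). Arterial, capillary and venular cells read 851, 477 and 783, 1226, 1160 and 935, and 688, 630 and 730 CPM. Capillary sums exceeded the venular ones of the same library, but the difference, 0.55 (SE 0.37, adjusted p = 0.535 by edgeR), did not pass the test.

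Tjp1 encodes ZO-1, the scaffold that joins tight junction proteins to actin, and lies at chr7:65296165-65527781 (minus strand). It was found in the 6 classes described and in fibroblasts in each library, while the immune cells gave 2, 0 and 35 UMIs. Blood endothelium read 249, 422 and 232 CPM, lymphatic endothelium 205, 231 and 223, and Schwann cells 262, 320 and 189. The Schwann range took in the lymphatic one, which lay just below the lowest blood endothelial level. The mural classes were lower, with muscle at 90.8, 118 and 156 CPM and pericytes at 105, 122 and 125. The endothelial excess over mural cells was 1.09 on the log2 scale (SE 0.19, adjusted p = 8.34e-05 by edgeR). Lymphatic and blood endothelium differed by -0.43 (SE 0.25, adjusted p = 0.291 by edgeR).

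Read against all genes, 5 of the 9 tested members changed between lymphatic and blood endothelium, where 20.8% of all tested genes did, 2 higher and 3 lower in lymphatic cells. Of the 5, Cldn11 and Cldn15 had to differ through the filter. Between endothelium and mural cells 6 of 9 changed, all higher in endothelium, where 39.6% of all genes changed and 19.5% were higher, and Cldn5, Cldn11 and Cldn15 among the 6 had to differ. Between capillary and venular cells 2 of 9 changed, where 7.24% of all genes did, and Cldn15 of the 2 had to differ. Between arterial and capillary cells 1 of 9 changed (2.09% of all genes), and between lymphatic and venular cells 4 of 9 (14% of all genes), 2 higher, with Cldn11 among them, and 2 lower in lymphatic cells.

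**Figure D3:**
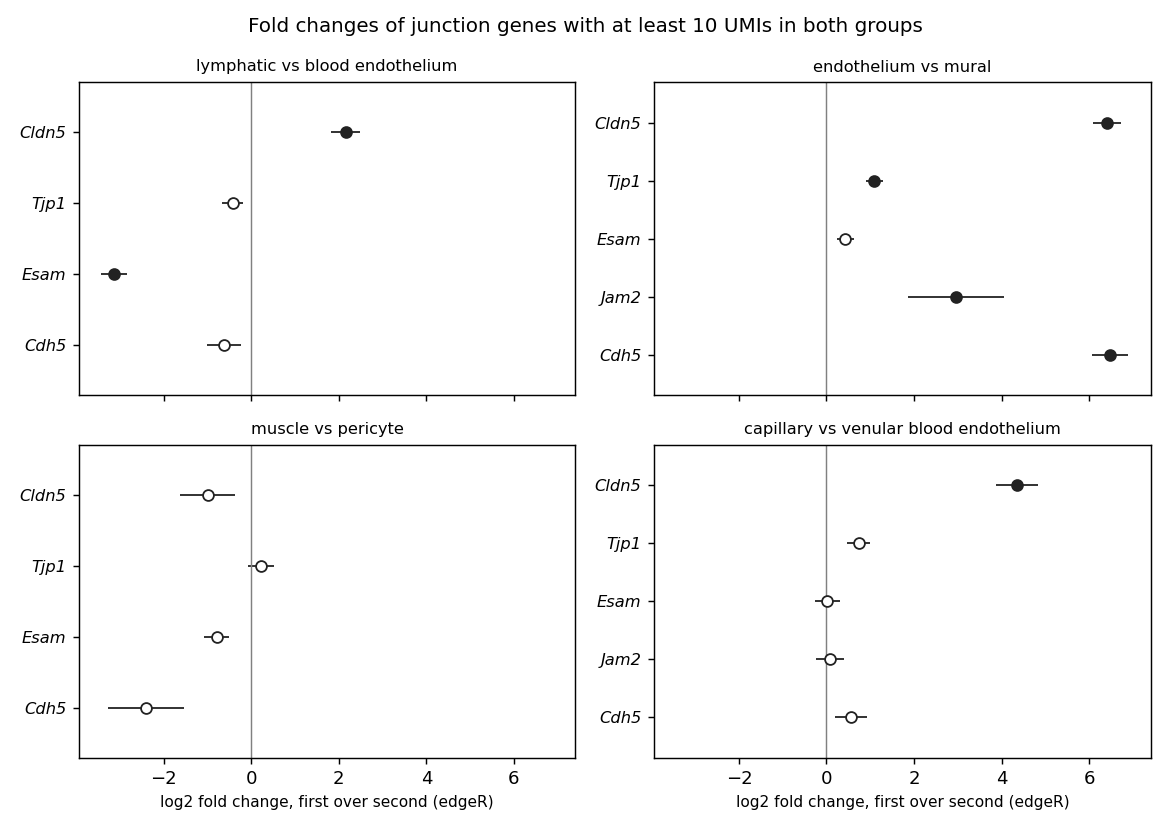
Log2 fold change of the genes with at least 10 UMIs in both groups (horizontal axis) for 4 comparisons, with filled points passing the edgeR test at an adjusted p under 0.05, open points not passing it, and bars showing 1 SE. Cldn5 passes in 3 of the 4 panels, but between endothelium and mural cells it had to differ through the filter. No gene shown passes between muscle cells and pericytes, and Cldn15, which was called there, held too few UMIs to be drawn.

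In Schwann cells the gene of the set was Cldn19, which encodes the claudin of Schwann cell myelin and of the thick ascending limb of the kidney, and lies at chr4:119255414-119262438 on the plus strand, with Gm12927 on the other strand. Schwann cells read 865, 595 and 698 CPM from 587 UMIs, and a UMI was found in 62.4%, 50.9% and 57.9% of them. Blood endothelium gave 1 UMI, lymphatic endothelium 2, muscle 1, and pericytes and perineurial cells 0. No other class came near the Schwann level, which exceeded blood endothelium by a ratio of 2914 (counting interval 521 to 115288) and lymphatic endothelium by 1599 (441 to 13233). Cldn19 passed the filter on low counts through the Schwann sums, where it is high, so it had to differ here and these values are a description.

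Among Schwann cells Cldn19 lay in the myelinating clusters. Myelinating cells read 1013, 794 and 1033 CPM and non-myelinating cells gave 1 UMI in 80 cells. The ratio was 145 (counting interval 25.9 to 5724), in subclasses of 184, 36 and 25 against 50, 17 and 13 cells. A UMI was found in 78.8%, 75.0% and 88.0% of myelinating cells, and after thinning to 1500 UMIs in 86.1%, 65.4% and 72.2% of the 122, 26 and 18 cells deep enough. The thinned share depends on the random draw: another draw over the same cells gave 80.8% in PLV replicate 2 and 88.9% in the mixed library, so no order of thinned and unthinned shares is read from it. Tjp1 was higher in myelinating cells too, at 288, 410 and 243 against 114, 51.1 and 76.1 CPM. That difference was 2.27 on the log2 scale (SE 0.42, adjusted p = 0.000266 by edgeR), without overlap between the groups, and 1.74 with an adjusted p of 0.0501 without PLV replicate 2. These were 2 of 9 members, where 9.32% of all genes changed. Of the 2, Cldn19 passed the filter only through myelinating sums and had to differ, and DESeq2 did not call it.

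The endothelial members were near absent from Schwann cells: Esam gave 2 UMIs, Cdh5 2, Jam2 0 and Cldn5 6. Against the mean of both endothelia the edgeR log2 fold change was -6.78 for Esam (SE 0.58, adjusted p = 7.41e-09) and -8.27 for Cdh5 (SE 0.78, adjusted p = 2.13e-08). Jam2 was at least 110-fold lower than in blood endothelium, and its call (adjusted p = 0.0267 by edgeR) was lost without PLV replicate 1 (adjusted p = 1) and without PLV replicate 2 (0.0509). Tjp1 gave a difference of -0.08 (SE 0.24, adjusted p = 0.859 by edgeR). In all, 5 of 9 members changed between Schwann cells and endothelium, 1 higher and 4 lower, where 37.2% of all genes changed. Of the 5, Cldn19 and Cldn5 had to differ through the filter.

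Cldn1, which encodes the claudin of the skin barrier and of perineurium, lies at chr16:26356642-26371841 (minus strand) and, of the classes described, was high in the perineurial class. The 15, 6 and 10 perineurial cells read 1418, 1663 and 263 CPM from 149, 53 and 15 UMIs. All endothelial, Schwann, muscle and pericyte sums gave 0 UMIs, so the perineurial level was at least 1525-fold higher than in lymphatic endothelium, at least 1390-fold higher than in blood endothelium and at least 280-fold higher than in Schwann cells. Fibroblasts gave 5, 12 and 3 UMIs (2.86, 28.5 and 1.42 CPM), and the 44 keratinocyte-like cells of PLV replicate 1 read 155 CPM. Perineurial cells were compared with Schwann cells in the libraries with at least 10 perineurial cells, PLV replicate 1 and the mixed library. Cldn1 passed the filter on low counts only through sums where it is high, so it had to differ and its levels are a description. DESeq2 did not call it.

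The perineurial class differed by library, so its other members are given per library. Of its 10 markers 8, 9 and 7 were 2-fold above other cells, and the fibroblast markers summed to 14948, 15693 and 64543 CPM. In PLV replicate 1 Cldn1 was found in 13 of 15 cells, in PLV replicate 2 in 5 of 6 and in the mixed library in 3 of 10. Of the 15 Cldn1 UMIs of the mixed library 12 were in 1 cell of 21323 UMIs, as were 18 of the 19 Tjp1 UMIs, all 3 Cdh5 UMIs and the 1 Ocln UMI. That class had a median depth of 3878 UMIs. Whether that cell is a doublet was not tested beyond the doublet caller. Without the mixed library the perineurial class is 1 sum, that of PLV replicate 1, which is then assumed to vary like the sums of the other classes. In that fit edgeR called Cldn1, Cdh5 and Cldn19 against Schwann cells, 3 of the 9 members, where 10.3% of all genes changed. Cldn1 and Cldn19 had to differ through the filter, which leaves Cdh5.

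Tjp1 read 552, 596 and 333 CPM in perineurial cells and differed from Schwann cells by 0.81 on the log2 scale (SE 0.34, adjusted p = 0.129 by edgeR). The level of the mixed library rests on the 1 deep cell, which held 18 of its 19 UMIs. Thinning to 1500 UMIs took the perineurial mean over libraries from 493.63 to 240.74 CPM, against an unthinned Schwann mean of 257, so no order of these classes is read. Cdh5 was found in perineurial cells at 276, 345 and 52.5 CPM, against 2 UMIs in all Schwann cells. Its ratio to Schwann cells over all summed libraries was 83.2 (counting interval 21.7 to 709). The test held the perineurial sums of PLV replicate 1 and the mixed library only (adjusted p = 0.000655 by edgeR). The call was lost without PLV replicate 1, where the perineurial class is again 1 sum. Cdh5 was in 11 of 15, 3 of 6 and 1 of 10 cells, and of the 15 cells with Cdh5 14 also held Cldn1. The 12 blood endothelial markers summed to 9.51, 0 and 35.0 CPM in these cells, and 11, 12 and 10 of them were at 0 UMIs, against 2562, 3674 and 2506 CPM in the other cells. Cldn5 and Esam were at 0 UMIs in all 31 perineurial cells. The Esam level of blood endothelium was at least 51.0-fold higher.

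Ocln, which encodes occludin, lies at chr13:100496507-100552718 (minus strand). Perineurial cells held 3, 2 and 1 of its UMIs, in 4 cells, while blood endothelium held 2 and lymphatic endothelium 1. Cldn19, with 0 UMIs in perineurial cells, was at least 50.6-fold higher in Schwann cells. Jam2 gave 8 UMIs in perineurial cells, in 4 cells of the mixed library other than the deep one. It was called against Schwann cells (adjusted p = 0.0175 by edgeR), with an adjusted p of 0.0529 without PLV replicate 2, but without the mixed library both classes were at 0 UMIs, and with cells of at least 1000 UMIs the log2 fold change turned to -5.91 and was not called. Together 4 of 9 members were called, 3 higher, with Jam2 among them, and 1 lower, where 12.8% of all genes changed, and DESeq2 called 2. Of the 4, Cldn1 and Cldn19 had to differ through the filter.

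**Figure D4:**
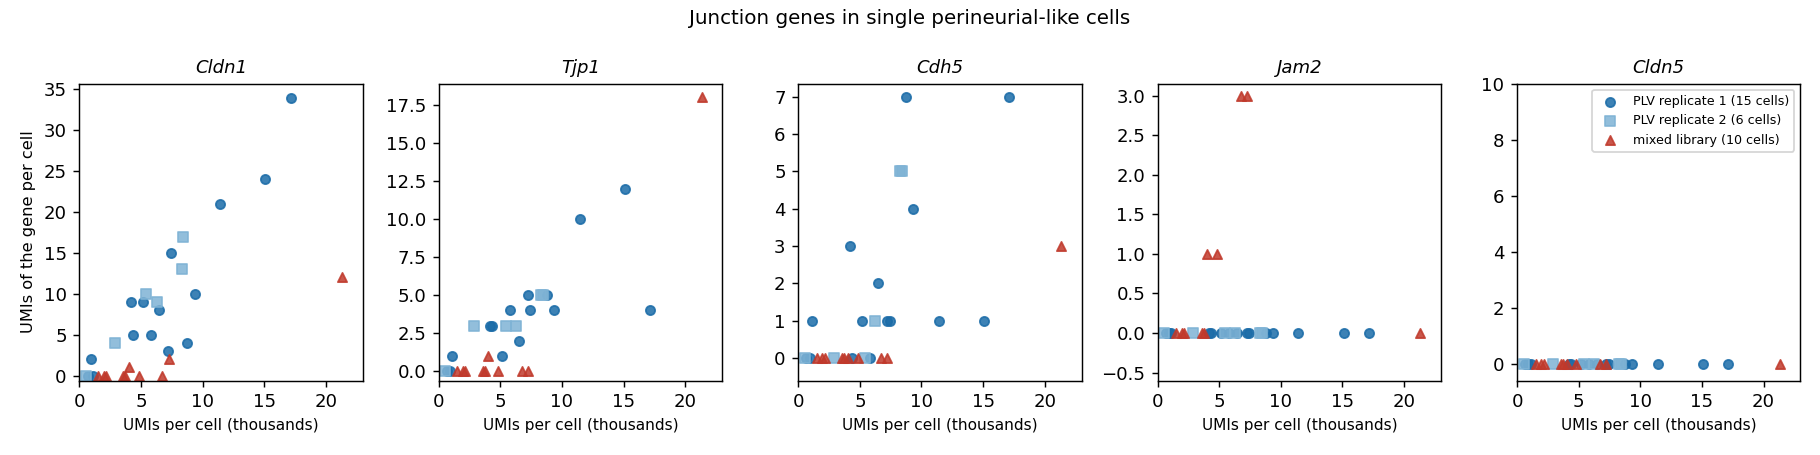
UMIs of 5 of the genes in each perineurial cell (vertical axis) against the cell's total UMIs (horizontal axis), coloured by library. Cldn1 UMIs lie in 13 of 15 and 5 of 6 PLV cells, and 1 deep cell holds 12 of the 15 of the mixed library.

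Muscle cells and pericytes held Esam and Tjp1, and few UMIs of the other members. Of the 9 tested members 1 passed the test, Cldn15, lower in muscle (edgeR log2 fold change -3.82, SE 1.19, adjusted p = 0.0463), where 10.1% of all genes changed. That call rests on 1 UMI in muscle and 5 in pericytes and was lost without any 1 of the 3 libraries (adjusted p from 0.155 to 0.268). Cdh5 read 6.89, 3.11 and 0.95 CPM in muscle and differed by -2.39 (SE 0.87, adjusted p = 0.0908 by edgeR), and Tjp1 differed by 0.22 (SE 0.29, adjusted p = 0.748 by edgeR). The 10 pericyte UMIs of Cdh5 in PLV replicate 1 were in 3 cells of the cluster led by Rgs5 and Dlk1. The 8 of the mixed library were in 2 cells. A cluster of 146 cells led by Rgs4 and Pln in PLV replicate 1 and one of 53 cells led by Pln and Sorbs2 in PLV replicate 2 carried muscle markers but stayed unnamed, and read 227 and 137 CPM of Esam and 47.9 and 75.9 CPM of Tjp1.

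No member passed the test between the kinds of library within a class. The mixed kind is 1 library, so in each such test and interaction its lone sum is assumed to vary like the other sums in the fit. In lymphatic endothelium (0.087% of all genes changed), blood endothelium (0.251%), Schwann cells (0.00966%) and muscle cells (0.357%), edgeR called 0 of 9 members, DESeq2 called 0, and 1, 0, 0 and 2 had an unadjusted p under 0.05. Cldn11 of lymphatic endothelium was higher in the PLV libraries by 1.17 on the log2 scale (SE 0.51, adjusted p = 0.673 by edgeR), and Cldn5 differed by -0.86 (SE 0.43, adjusted p = 0.754 by edgeR), the mixed library having the higher level. Tjp1 of muscle differed by -0.91 (SE 0.34) and did not pass in the main fit. It was called where the unnamed muscle-marked clusters were counted as muscle, as given with the alternatives below. Different clusters hold the muscle class in the kinds of library: the mixed library has clusters led by Ccn3 and Col12a1 and by P2rx1 and Col12a1, at 191 and 175 CPM of Tjp1, and no muscle cluster of the PLV libraries has Col12a1 among its 10 leading genes. The lymphatic class differs too: each PLV library has a cluster led by Ccl21a, and the mixed library only the cluster led by Nts and Mmrn1. Whether a difference between classes itself differed by kind of library was tested as an interaction for lymphatic against blood endothelium (0.0483% of all genes called), endothelium against mural cells (0.00966%), Schwann cells against endothelium (0%) and muscle against pericytes (0%). In each, edgeR called 0 of 9 members and 0 had an unadjusted p under 0.05; DESeq2 was not run for the interactions.

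Other genes of tight and adherens junctions were taken from lists of claudins, tight junction membrane proteins, tight junction plaque proteins and adherens junction proteins. Without the 10 members they hold 55 genes, of which 31 were tested. A listed gene that passed the filter only through a class where it is high had to differ, so these counts are descriptions. Between lymphatic and blood endothelium 7 were higher, 9 lower and 15 did not pass, where 20.8% of all genes changed, with a median log2 fold change of 0.04 against -0.01 over all genes. Lsr, which encodes the tricellular junction protein angulin-1, read 119, 132 and 124 CPM in lymphatic and 22.7, 10.7 and 5.7 in blood endothelium, a difference of 3.24 (SE 0.37). The filter admitted Lsr through its lymphatic sums, so it had to differ and is given with no p. Cgnl1, encoding paracingulin, rose by 2.18 (SE 0.27, adjusted p = 4.72e-06 by edgeR) and read 169, 203 and 166 CPM in lymphatic cells. Nectin2 and Pard3 also rose, by 1.92 and 1.89, and Cdh2, encoding N-cadherin, and Ildr2 fell by 5.35 and 3.33 on the same scale.

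Between endothelium and mural cells 15 of the 31 were higher, 5 lower and 11 did not pass, where 39.6% of all genes changed and 19.5% were higher, with a median of 0.55 against -0.01. Pecam1, the endothelial adhesion molecule CD31, was higher by 6.51, and F11r, encoding JAM-A, by 4.82, while Ildr2 was lower by 5.88 (edgeR log2 fold change -5.88). Between capillary and venular cells 3 were higher, 2 lower and 26 did not pass, where 7.24% of all genes changed, with a median of 0.10 against 0.01 over all genes. Jup, encoding plakoglobin, was higher in capillary cells by 3.25 (SE 0.33, adjusted p = 2.25e-08 by edgeR) and higher in lymphatic than in venular cells by 3.79. Between arterial and capillary cells 2 were higher, 1 lower and 28 did not pass, where 2.09% of all genes changed, with a median of -0.15 against -0.11. Lsr was higher by 3.01.

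In Schwann cells against endothelium 5 of 31 were higher, 11 lower and 15 did not pass, where 37.2% of all genes changed, with a median of -0.30 against -0.12. Cdh1, encoding E-cadherin, read 135, 141 and 57.5 CPM in Schwann cells and gave 1 UMI in lymphatic and 0 in blood endothelium. In myelinating against non-myelinating cells 6 were higher, 3 lower and 22 did not pass, where 9.32% of all genes changed, with a median of 0.14 against 0.17. Cdh2 was lower (edgeR log2 fold change -4.03). In perineurial against Schwann cells 8 were higher, 5 lower and 18 did not pass, where 12.8% of all genes changed, with a median of 0.56 against -0.12. Without the mixed library 8 of 30 were higher and 5 lower (10.3% of all genes), and without PLV replicate 1 4 of 30 were higher and 1 lower (3.9%), with 1 perineurial sum in either fit. F11r read 447 and 210 CPM and Cxadr 314 and 228 CPM in the perineurial sums of PLV replicate 1 and the mixed library, and both gave 0 UMIs in Schwann cells. Outside perineurial cells Cxadr gave 4 UMIs in the classes fitted, so it passed the filter through the perineurial sums and had to differ. Between muscle cells and pericytes 2 were higher, 2 lower and 27 did not pass, where 10.1% of all genes changed, with a median of 0.12 against 0.04. Jup was higher by 1.48 and Pecam1 and Cdh2 were lower (-3.20 and -3.15).

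The genes whose levels ran closest to each member over the 20 class sums were found by Pearson's correlation of log2(CPM + 10). The sums share libraries and classes, so these are descriptions. Cldn5 was nearest to Bik (0.984), Ptpn18 (0.983) and Hhex (0.980), Cldn1 to Thbs4 (0.980), and Cldn19 to D430041D05Rik (0.999) and Cadm2. Cadm2 was among the markers of non-myelinating Schwann cells, while Cldn19 lay in the myelinating clusters. Their likeness is therefore one of whole Schwann sums and does not hold between the subclasses. Cldn11 was nearest to Smtnl2 (0.95), Cldn15 to Csf2rb (0.946), Cdh5 to Afap1l1 (0.968), Esam to Cd36 (0.938), Jam2 to AW112010 (0.912) and Tjp1 to Pak2 (0.891). Tjp1, present in each of these sums, had the lowest leading value of the 9.

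Near-empty droplets of the mixed library, those with fewer than 50 UMIs, numbered 185412 and gave 1000645 UMIs. They held 202 UMIs of Cldn5, 62 of Tjp1, 53 of Cdh5, 50 of Esam and 27 of Jam2, and at most 4 of each other member. The immune cells of that library read 89.8 CPM of Esam and 58.2 of Tjp1 but held 1 UMI of Cldn5, and those of the PLV libraries read 1.62 and 4.32 CPM of Esam and 3.25 and 0 of Tjp1. The part of free RNA in class levels was not tested. On the annotation Tjp1, Jam2 and Pard3 overlap other gene models on the same strand, and Cldn19, Tjp1, Cdh5, Lsr, Ildr2, Nectin2, Cdh2 and Cxadr on the other strand, and reads of overlapping genes cannot be told apart here.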

How the data were processed

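Single-cell RNA libraries of mouse popliteal vessels were read as UMI counts. The deposited counts were whole numbers per gene and barcode, not normalised, made by the authors with Cell Ranger 6.1.2 (PLV libraries) and 4 (mixed library) on GRCm38, per the submitters' processing notes and the file headers; the counting strand is not given in the sources used here. The deposited matrices held 2649, 730 and 896360 barcodes. Barcodes were kept with at least 500 UMIs, 300 genes, at most 15% mitochondrial and 20% haemoglobin UMIs; scrublet doublets were left out (8, 3 and 3), and undetected ones may remain. Each library was clustered alone (scanpy 1.11.5, leidenalg 0.10.2; 2000 variable genes, 50 components, 15 neighbours, resolution 2), with the members and all junction genes left out. Clusters were named where at least 3 markers were 2-fold up (20 CPM added). A name was withheld where the 10 leading genes held more markers of another class, or where depth was low and no marker led. Platelet-like clusters were left unnamed too.

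UMIs were summed per library and class (at least 10 cells; 20 sums, 10350 genes tested; 29 sums and 10462 genes with subclasses) and tested with edgeR 4.0.16 (R 4.3.3; quasi-likelihood, TMM, filterByExpr, Benjamini-Hochberg 0.05, library as block), with DESeq2 1.42.0 as alternative. Every test was first tested on simulated data. Intervals are 95% exact Poisson or Clopper-Pearson and cover counting error only, as does the floor of 3 counts. Thinned shares are from 1 random draw. Named genes were the members, list genes with at least 50 UMIs passing the threshold (at most 6 per comparison) and the 3 likest genes. Members and lists were chosen with earlier results of these data known. Samples were grouped by their titles. Coordinates are from GENCODE M21. Alternatives were another tool, filters, thresholds, resolutions, doublets, classes in the fit, scaling and each library left out. Hashtag counts were not used.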

Additional observations from a re-analysis of the deposited data

How the results depend on the processing

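Under every alternative run, the number of members called stayed within 1.5 times its value for lymphatic against blood endothelium, endothelium against mural cells, Schwann cells against endothelium and lymphatic against venular endothelium. Leaving out each library in turn gave 5 to 5, 4 to 6, 4 to 5 and 4 to 4 in that order, 3 to 3 for perineurial against Schwann cells (a lone perineurial sum without PLV replicate 1 or the mixed library), 0 to 1 for muscle cells against pericytes, 2 to 3 for capillary against venular, 1 to 2 for myelinating against non-myelinating and 0 to 1 for arterial against capillary cells. The perineurial count of 4 became 2 with DESeq2 and 2 in a fit of only the classes compared. The muscle count of 1 became 2 with no filter on low counts, 2 without TMM factors, 0 with a mitochondrial limit of 10% and 0 with resolution 1. The capillary count of 2 became 4 in a fit of only the classes compared, and the myelinating count of 2 became 1 with DESeq2. The arterial count of 1 became 0 with DESeq2, at least 1000 UMIs, at most 10% mitochondrial UMIs, resolution 1, doublets kept and no library block. Between kinds of library, Schwann cells gained 2 calls at 1000 UMIs (1.9% of all genes called), and muscle cells 1 where 4.92% of all genes were called (Tjp1, -1.12, adjusted p = 0.0357 by edgeR) once the unnamed muscle-marked clusters were counted as muscle, a class that different clusters hold in the kinds of library. Thinning to 1500 UMIs moved mean levels of Cldn15 in blood endothelium from 37.62 to 27.49 CPM, Tjp1 in perineurial cells from 493.63 to 240.74 and Cdh5 in blood endothelium from 934.4 to 1077.7. The cause of these changes was not tested.

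Log2 fold changes that turned sign were not called in the main fit, except Jam2 in perineurial against Schwann cells (-5.9057 at 1000 UMIs). Tjp1 in Schwann cells against endothelium became 0.0212 (DESeq2), 0.0151 (1000 UMIs) and 0.0233 (without TMM), and ran from -0.1944 to 0.0439 with libraries left out. Tjp1 in muscle against pericytes ran from -0.015 to 0.3318 in the same way. For capillary against venular cells Esam ran from -0.0408 to 0.1328, with -0.008 among only the classes compared, and Jam2 from -0.0579 to 0.3438. For arterial against capillary cells Cldn15 became 0.0831 (DESeq2), 0.0565 (10% mitochondrial), 0.0451 (only the classes compared), 0.006 (no replicate block) and 0.0131 (without TMM), with libraries left out from -0.3373 to 0.112, and Tjp1 0.156 (1000 UMIs). Between kinds of library Cdh5 in lymphatic endothelium became 0.003 (DESeq2), 0.0072 (no filter), 0.1664 (without TMM) and 0.012 (sums of 5 cells), Jam2 in blood endothelium 0.0004 (DESeq2) and 0.0665 (without TMM), Cldn19 in Schwann cells 0.568 (1000 UMIs) and 0.0869 (without TMM), Esam in muscle 0.0029 (without TMM) and Cldn5 in muscle -0.0127 (unnamed clusters as muscle).

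The block was the library that all classes of a pool share, and replicate numbers pair no other samples. Without the block the counts were 5, 6, 5, 4, 1, 2, 2 and 4 for lymphatic against blood endothelium, endothelium against mural, Schwann against endothelium, perineurial against Schwann, muscle against pericyte, capillary against venular, myelinating against non-myelinating and lymphatic against venular cells, as with it. Leaving a PLV replicate out of the comparisons between kinds of library was not run. The scaling without TMM, the minimum of 5 cells, the muscle alternative and the arterial and lymphatic against venular comparisons were chosen after seeing the data. So were the interactions with kind of library. Perineurial and arterial sums hold few cells, which limits their depth: members at 0 UMIs were not detectable, which does not show that they are absent.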
